A study of Caenorhabditis elegans with 3 samples.

Results

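The comparison described here set both RNAi libraries of SWI/SNF paralogs, averaged, against the control library, gene by gene. For each gene the mean of log2(FPKM + 1) in the ham-3(RNAi) and swsn-2.2(RNAi) libraries was taken minus that in the gfp(RNAi) library, and this difference is called the pooled ratio. FPKM counts sequenced fragments per kilobase of transcript, scaled to the number of fragments mapped in the library. Genes were members when they were above 0 in all 3 libraries and had a mean FPKM of at least 1, which kept 14154 of the 46135 genes listed. Of the genes listed, 20495 were above 0 in at least 1 library and 17238 in all 3.

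All libraries came from whole wild-type N2 Caenorhabditis elegans, a nematode whose L4 stage is the last larval stage before the adult. L1 larvae were synchronized, fed RNAi bacteria on plates for 36 hours and collected as L4. The temperature is given as 25 °C in the series design and as 35 °C in the growth protocol, so it is uncertain. The control bacteria carried a clone against gfp, a sequence that wild-type worms lack, and the other bacteria carried a clone against ham-3 or swsn-2.2. Poly(A) RNA was sequenced as paired-end reads of 73 bp, with 1 library per clone.

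SWI/SNF complexes use the energy of ATP to slide or evict nucleosomes, and so open or close promoters and enhancers. They are built around an ATPase, with core subunits that every form holds and accessory subunits that differ between forms. HAM-3 and SWSN-2.2 are paralogs of an accessory subunit. Averaging both libraries gives their mean difference from the control, which can come mainly from a single library and can hide opposite differences.

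The pool holds 2 libraries of different treatments and no replicates, so no p-value was computed. Even an exact permutation of the 3 library labels could not give a p below 0.333. Both RNAi libraries are set against the same gfp library, and a deviation of that library alone gives the same pattern as a shared response. The gap between both RNAi libraries is therefore the only spread shown, and it covers neither the spread between cultures nor that of the control.

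The depth inferred from the files was about 19800936 fragments in the gfp library, 31056275 in ham-3(RNAi) and 30913489 in swsn-2.2(RNAi). Over 8 tissues, the median pooled ratio of fixed marker genes lay between -0.15 in the pharynx and 0.13 in sperm. Defining markers ges-1 (intestine), dpy-7 (hypodermis), rab-3 and unc-31 (neurons) and fer-1 (sperm) were listed at 0 in a library and left out. In whole animals, fewer cells of a type and less RNA per cell cannot be told apart.

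The targeted genes did not follow the labels in both libraries. The gene ham-3 is ZK1128.5, on chromosome III of WBcel235 from 10120781 to 10122925. Its FPKM was 31.5 in swsn-2.2(RNAi), 23.1 with the label ham-3(RNAi) and 19.3 in gfp. It was thus lowest in the control, and the label ham-3(RNAi) was not matched by a lower ham-3 level. The gene swsn-2.2 is C18E3.2, on chromosome I from 4210979 to 4212667. It was listed at 0 in swsn-2.2(RNAi), against 37.8 FPKM in ham-3(RNAi) and 19.3 in the control. Its neighbour C18E3.1 was at 9.98 FPKM in gfp, 12.6 in ham-3(RNAi) and 0 in swsn-2.2(RNAi). In the authors' deposited table the p-value of swsn-2.2 was 1 in both comparisons, and a value of exactly 0 in these tables can be a failed estimate. Every statement on the pool below rests on a library labelled ham-3(RNAi) whose target was not lowered, and ham-3(RNAi) below stands for the library so labelled. Where 3 FPKM values follow without library names, their order is gfp, ham-3(RNAi), swsn-2.2(RNAi).

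Most genes differed little between the pool and the control. The pooled ratio had a median of 0.05 on the log2 scale, and its middle 95% ran from -0.46 to 0.46. It stayed within 1.5-fold for 13806 genes. It was above 0 for 62.8% of genes and below 0 for 37.2%, and its median was -0.0081 after centring each library on its median gene. The ratio of single libraries against gfp had a median of 0.08 in swsn-2.2(RNAi) and 0.03 in ham-3(RNAi).

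The pooled ratio was at least 2-fold higher for 36 genes, 0.254% of those kept, and at least 2-fold lower for 27 genes (0.191%). After centring, these counts were 28 and 32. For 56 of the 63 genes the ratio was larger than the gap between both RNAi libraries. These genes were chosen on that ratio, so the count does not measure how well the libraries match. Just inside the upper threshold was E02H4.7 (1.01) and just outside it vit-5 (0.98), and at the lower threshold K11E8.7 (-1.01) and C27B7.9 (-0.99) were nearest.

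A stricter view asks for at least 1.5-fold in each RNAi library on its own. By that rule 87 genes (0.615%) were jointly higher and 77 genes (0.544%) jointly lower than in the gfp library. After centring the split turned to 67 higher and 121 lower, and with upper quartile scaling to 74 and 111, so which direction was more frequent depended on the scaling. In the opposite sense, 10 genes (0.0707%) were at least 1.5-fold lower in ham-3(RNAi) and higher in swsn-2.2(RNAi), and 0 genes were the other way round. Of the 36 and 27 genes past 2-fold, 35 and 21 were also jointly higher or lower.

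**Figure D1:**
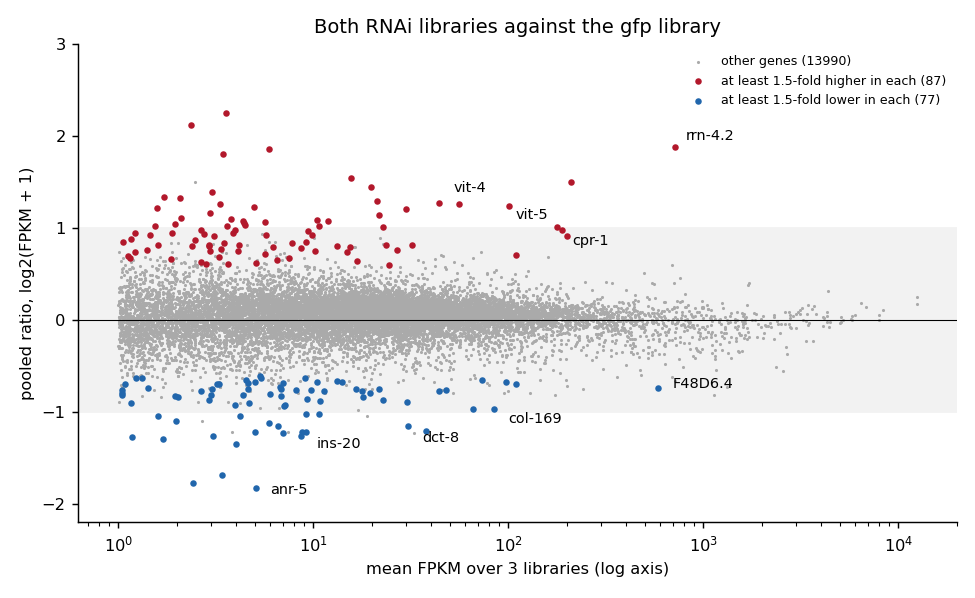
Pooled ratio (y axis, log2 of FPKM + 1) against the mean FPKM over 3 libraries (x axis, log scale) for 14154 genes, with 87 jointly higher genes in red and 77 jointly lower genes in blue; grey shading spans ratios within 2-fold. The SD of the pooled ratio was 0.30 at 1 to 5 FPKM, 0.17 at 20 to 100 FPKM and 0.19 at 100 FPKM and above. The coloured genes above 100 FPKM are few.

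The share of jointly higher or lower genes was greatest at low levels. Of the 87 higher genes, 47 had a mean FPKM under 5, as had 31 of the 77 lower genes. Among genes of 1 to 5 FPKM, 1.46% were jointly higher and 0.965% jointly lower, against 0.204% and 0.225% among genes of 20 to 100 FPKM, and 0.438% and 0.125% among genes of 100 FPKM and above. RefSeq non-coding RNA genes held 8.33% jointly higher and 6.67% jointly lower of 180 genes kept, against 0.465% and 0.458% of 13332 protein-coding genes. The SD of the pooled ratio was 0.59 for these non-coding genes and 0.22 for protein-coding genes. Poly(A) selection and short transcripts both bear on such values, and their part in the difference was not tested.

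**Figure D2:**
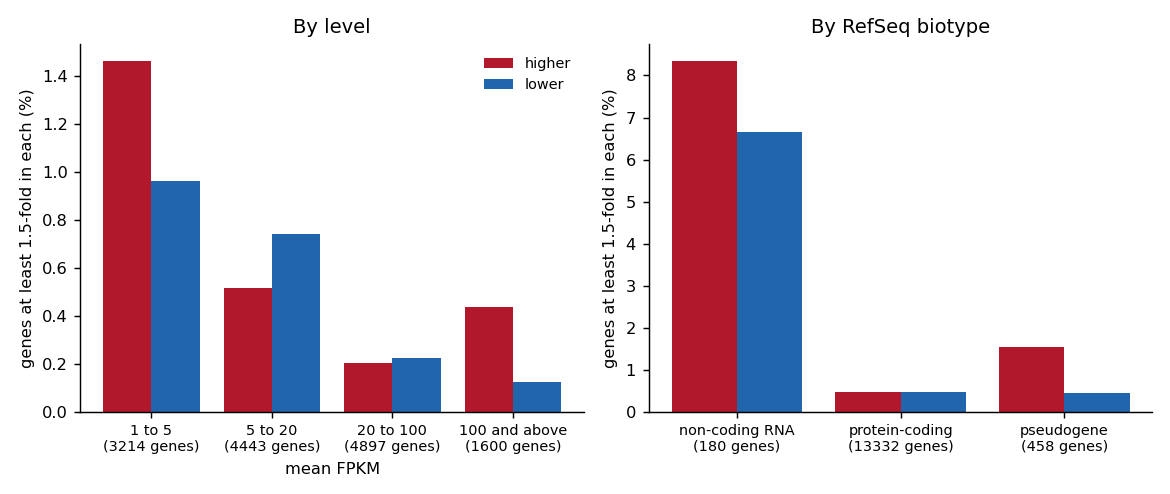
Share of genes at least 1.5-fold higher (red) or lower (blue) than gfp in each RNAi library (y axis, percent) by mean FPKM (left) and by RefSeq biotype (right), with the number of genes under each pair of bars. The tallest bars are genes of 1 to 5 FPKM on the left and non-coding RNA on the right.

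The yolk genes stood out among the protein-coding genes. Vitellogenins are yolk precursor proteins that the intestine makes and secretes for the oocytes, mostly in the adult hermaphrodite. All 6 vit genes were kept, and each was highest in swsn-2.2(RNAi), intermediate in ham-3(RNAi) and lowest in gfp. Over all genes kept, gfp was the lowest library for 43.5%. The median pooled ratio of the 6 genes was 1.03, from medians of 0.70 in ham-3(RNAi) and 1.36 in swsn-2.2(RNAi). Of the 6, 4 were jointly higher (all genes 0.615%).

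The gene vit-4 is F59D8.2, on chromosome X from 3558769 to 3563965. It stood at 21.2 FPKM in gfp, 37.2 in ham-3(RNAi) and 74.1 in swsn-2.2(RNAi), a pooled ratio of 1.27. These levels rest on about 1997, 5503 and 10937 inferred fragments. The log2 ratio of the fragment-weighted FPKM of both RNAi libraries to gfp was 1.40, with a 95% counting interval from 1.33 to 1.46. In the authors' deposited tables, vit-4 is not among the genes common to both comparisons, and its swsn-2.2(RNAi) comparison may lack a valid test. vit-3, its neighbour 3389 bp away on the same strand, was at 5.43, 9.74 and 16.3 FPKM, a pooled ratio of 1.08. vit-1 was at 27.5, 51.7 and 87.9 FPKM, a pooled ratio of 1.26.

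vit-5 was higher in level, at 112 FPKM in gfp, 179 in ham-3(RNAi) and 276 in swsn-2.2(RNAi), a pooled ratio of 0.98. The most abundant members differed least: vit-2 was at 449, 535 and 658 FPKM (0.40), and vit-6 at 389, 517 and 592 FPKM (0.51), neither of them jointly higher. Summed over the family, FPKM was 1004 in gfp, 1329 in ham-3(RNAi) and 1704 in swsn-2.2(RNAi). vit-3, vit-4 and vit-5 are near-identical copies, as are parts of other members, so the division of fragments among them is uncertain.

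**Figure D3:**
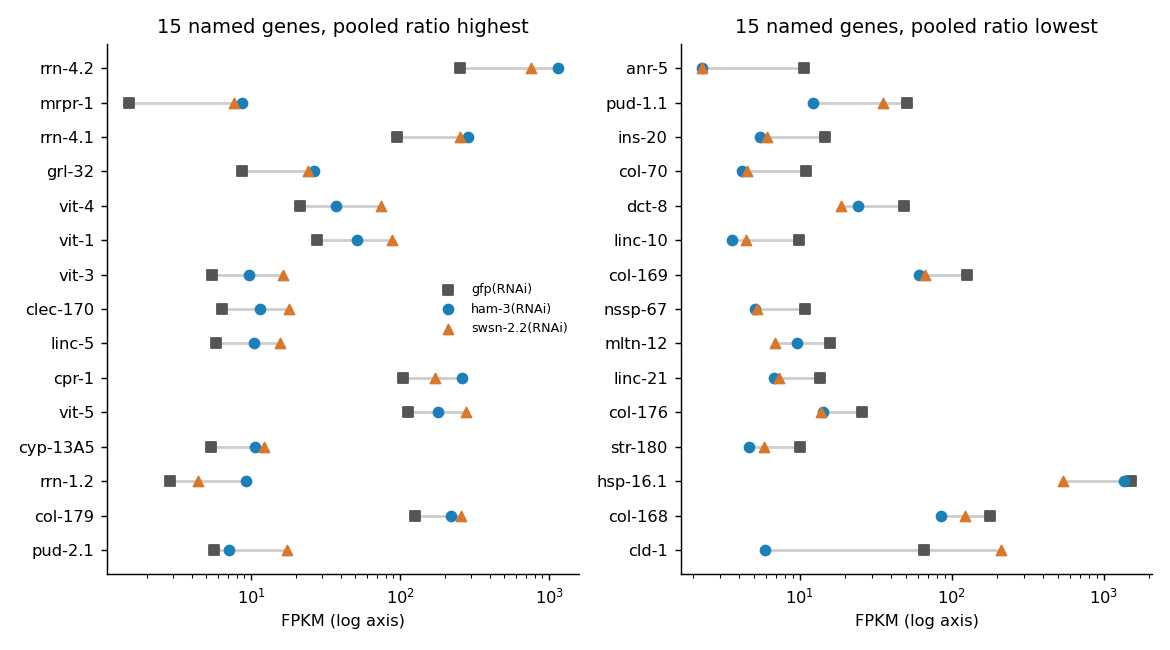
FPKM (x axis, log scale) in the gfp (grey square), ham-3(RNAi) (blue circle) and swsn-2.2(RNAi) (orange triangle) libraries for the 15 named genes of highest (left) and of lowest (right) pooled ratio, mean FPKM at least 5. In most rows the square lies at an end with both other points on the same side; cld-1, at the bottom right, has its square between them.

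Secreted digestive and defence proteins of the gut were also among the jointly higher genes. cpr-1, a cathepsin B-like cysteine protease, was at 105 FPKM in gfp, 260 in ham-3(RNAi) and 171 in swsn-2.2(RNAi), a pooled ratio of 1.01. Here ham-3(RNAi) was the highest library, unlike the yolk genes. lys-4, a lysozyme, was at 76.5, 130 and 121 FPKM, a pooled ratio of 0.71. The aspartyl protease gene asp-13 was at 46.6, 68.7 and 81.7 FPKM (0.67), with a ham-3(RNAi) ratio of 0.55 that fell short of the 1.5-fold line.

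These families as wholes lay close to all genes. Lysozymes and saposin-like peptides had a median pooled ratio of -0.01 over 28 genes with 1 jointly higher, and cathepsin and aspartyl proteases 0.04 over 19 genes with 1 jointly higher. Neither list held a jointly lower gene, and over all genes 0.615% were jointly higher and 0.544% jointly lower.

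C-type lectins, carbohydrate-binding proteins of which many are secreted by the gut or skin, had a median of 0.16 over 97 genes. Of these, 72 lay above 0 (all genes 62.8%), 6 were jointly higher and 0 jointly lower (0.615% and 0.544% of all genes). clec-170 was at 6.34 FPKM in gfp, 11.5 in ham-3(RNAi) and 18.02 in swsn-2.2(RNAi), a pooled ratio of 1.07. The next gene, clec-169, 2243 bp away on the same strand of chromosome IV, was at 2.43, 5.30 and 4.80 FPKM (0.82). clec-7 was at 2.198, 5.03 and 6.10 FPKM (1.03), and clec-5 at 18.1, 33.4 and 29.4 FPKM (0.76). The remaining jointly higher lectins were clec-172 (1.04) and clec-10 (0.64).

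Cytochrome P450 and ugt genes had a median near that of all genes, with single members further away. Cytochrome P450 enzymes oxidize foreign and internal lipophilic compounds, and UDP-glucuronosyltransferases (ugt) attach sugars to them. Of 104 such genes kept, 3 were jointly higher and 1 jointly lower (0.615% and 0.544% of all genes), with a median of 0.06 (all genes 0.05). cyp-13A5 was at 5.37 FPKM in gfp, 10.6 in ham-3(RNAi) and 12.3 in swsn-2.2(RNAi), a pooled ratio of 0.96. ugt-63 (1.11) and ugt-13 (0.79) were the other jointly higher members, and ugt-2 was lower at 12.2, 7.55 and 7.45 FPKM (-0.64).

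Glutathione S-transferases, which conjugate glutathione to reactive compounds, had a median of 0.19 over 38 genes, and 30 of them were above 0 (all genes 62.8%). gfp was the lowest library for 63.2% of them. None of the 38 was jointly higher or lower (0 in each direction), where all genes had only 0.615% and 0.544%. gst-9 was at 10.8, 16.05 and 16.2 FPKM (0.54). pgp-1, an ABC transporter of the P-glycoprotein family, was jointly higher at 4.42, 7.25 and 7.78 FPKM (0.65).

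Cuticle collagens, the structural proteins of the worm's exoskeleton, included genes on both sides. Over 125 col genes the median pooled ratio was -0.10, from -0.20 in ham-3(RNAi) and 0.01 in swsn-2.2(RNAi), so without ham-3(RNAi) the median was no longer below 0. There were 77 members below 0 (all genes 37.2%) and 48 above, with 5 jointly lower (all genes 0.544%) and 2 jointly higher (all genes 0.615%). gfp was the highest library for 46.4% of col genes and for 21.7% of all genes.

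Of the lower collagens, 2 were neighbours on chromosome X. The gene col-169 is T10E10.5, from 6329160 to 6330062. It stood at 126 FPKM in gfp, 60.6 in ham-3(RNAi) and 67.0 in swsn-2.2(RNAi), a pooled ratio of -0.97. col-170, 1646 bp further on the same strand, was at 130, 84.4 and 77.5 FPKM (-0.67). Their neighbour in name, col-168, was at 179, 85.4 and 122.1 FPKM (-0.80), with a swsn-2.2(RNAi) ratio of -0.54 that missed the 1.5-fold line. These genes are similar in sequence, and their values may share fragments.

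col-70 was lower at 10.9, 4.203 and 4.51 FPKM (-1.16), and col-176 at 25.9, 14.2 and 13.8 FPKM (-0.84). The fragment-weighted ratio of col-70 was -1.32, with a counting interval from -1.56 to -1.09. On the other side, col-179 was higher at 126 FPKM in gfp, 221 in ham-3(RNAi) and 255 in swsn-2.2(RNAi), a pooled ratio of 0.91. col-158 was also jointly higher (0.88) and col-105 jointly lower (-0.81), both at under 2 FPKM in every library.

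Other genes of skin and its patterning were few. wrt-4, which encodes a secreted hedgehog-related protein, was at 65.9 FPKM in gfp, 35.4 in ham-3(RNAi) and 41.9 in swsn-2.2(RNAi), a pooled ratio of -0.76. The 62 hedgehog-related genes kept had a median of -0.04, with 1 jointly lower and 1 jointly higher (0.544% and 0.615% of all genes). The higher member was grl-32, marked as a pseudogene by RefSeq, at 8.64, 26.4 and 24.1 FPKM (1.45). bro-1, the partner subunit of a RUNX factor in the stem-like seam cells of the skin, was at 1.81, 0.480 and 0.861 FPKM (-0.76). The moulting genes, with a median of -0.02 over 23 genes, and the shape and furrow collagens, with -0.01 over 19, had 0 jointly higher or lower members, and the sign of both medians turned without swsn-2.2(RNAi).

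Single insulin-like and DAF-16 related genes were jointly lower, while their families lay on both sides of 0. In the worm, insulin-like peptides bind the receptor DAF-2, whose signalling keeps DAF-16 out of the nucleus. The insulin-like gene ins-20 is ZK84.7, on chromosome II from 6010844 to 6011321. Its FPKM was 6.08 in swsn-2.2(RNAi), 5.49 in ham-3(RNAi) and 14.8 in gfp, a pooled ratio of -1.22. It rests on about 76, 44 and 51 inferred fragments, and the counting interval of its fragment-weighted ratio ran from -1.78 to -0.87. It was the only jointly lower gene among 26 insulin-like peptides (all genes 0.544%). Of these peptides 12 lay above 0 and 14 below (all genes 62.8% and 37.2%). Their median was -0.06, and it turned to 0.08 without ham-3(RNAi) and to 0.02 at a mean FPKM of at least 5.

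A divergent pair of genes on chromosome IV, dct-8 and F56D6.8, was jointly lower, and so was another, dct-7 and F15E6.4. The name dct marks genes found as DAF-16 targets that affect germline tumours. Of the 10 dct genes kept, 2 were jointly lower (0.544% of all genes), 7 lay below 0 and 3 above, the highest being dct-5 (0.31), and the median was -0.02. The gene dct-8 is F56D6.10, from 3895070 to 3895506. It stood at 48.5 FPKM in gfp, 24.4 in ham-3(RNAi) and 18.6 in swsn-2.2(RNAi), a pooled ratio of -1.15. F56D6.8, which starts 639 bp away on the other strand, was at 98.4, 48.7 and 50.6 FPKM (-0.97). In the other pair, with 901 bp between the genes, F15E6.4 was at 61.8, 25.6 and 26.8 FPKM (-1.21) and dct-7 at 97.3, 62.2 and 60.3 FPKM (-0.66). In all 4 genes the pooled ratio was larger than the gap between the RNAi libraries, as it was in all 77 jointly lower genes. The joint rule itself favours that outcome, so it does not measure how well the libraries match.

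The classical DAF-16 and stress targets (superoxide dismutases, catalases, metallothioneins, ferritin and others) had a median of -0.16 over 16 genes. Of these, 13 lay below 0 (all genes 37.2%) and 0 were jointly lower (all genes 0.544%). gfp was the highest library for 10 of the 16 and for 21.7% of all genes. ftn-1, a ferritin for iron storage, was at 37.3 FPKM in gfp, 32.7 in ham-3(RNAi) and 16.5 in swsn-2.2(RNAi), so its pooled ratio of -0.66 came mainly from swsn-2.2(RNAi). mtl-1, a metallothionein, was at 16.2, 14.7 and 8.69 FPKM (-0.48), with the same order.

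**Figure D4:**
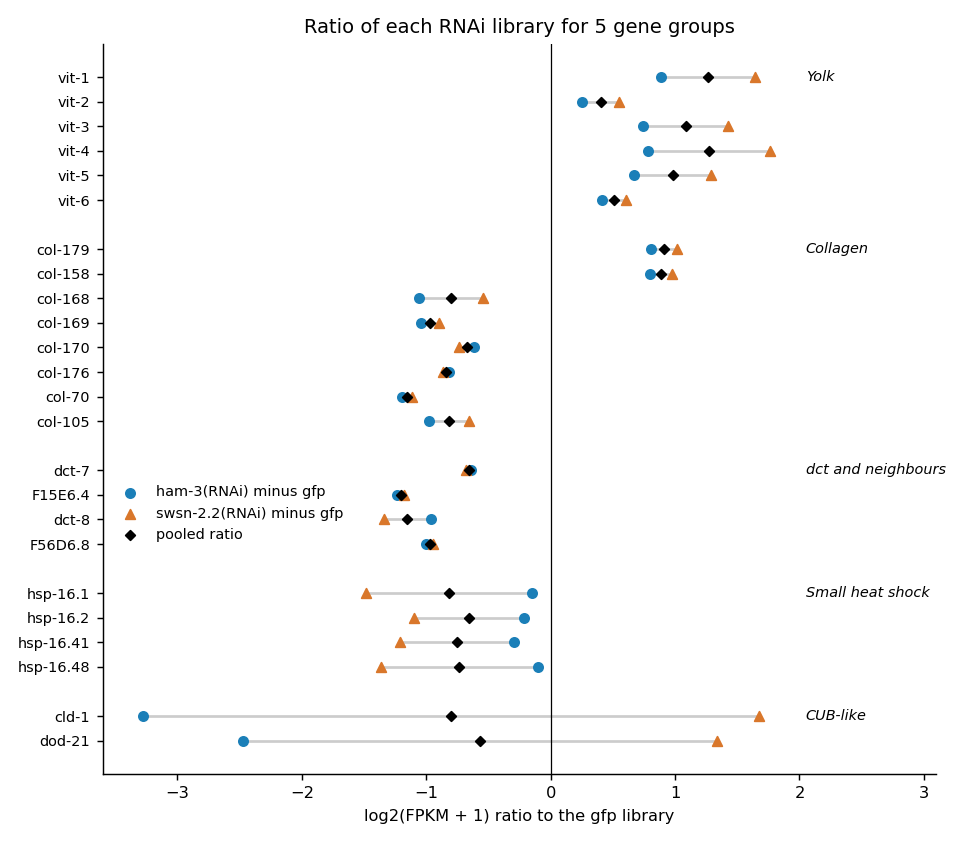
Log2(FPKM + 1) ratio to gfp (x axis) of ham-3(RNAi) (blue circle) and swsn-2.2(RNAi) (orange triangle), with the pooled ratio as a black diamond, for 5 groups of genes. Yolk, collagen and dct rows have both symbols on the same side of 0, small heat shock rows have the circle near 0, and both CUB-like rows have symbols on opposite sides.

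A pooled ratio can hide a gap between the libraries, and the small heat shock genes are an example. hsp-16 genes encode small chaperones that are made under heat and other stress. hsp-16.1 was at 1515 FPKM in gfp, 1367 in ham-3(RNAi) and 540 in swsn-2.2(RNAi), a pooled ratio of -0.82 made of -0.15 and -1.49. hsp-16.2, hsp-16.41 and hsp-16.48 had pooled ratios of -0.66, -0.75 and -0.73, and in each the ham-3(RNAi) ratio was above -0.30. hsp-70 was at 59.3, 56.6 and 20.8 FPKM (-0.77). The 17 cytosolic heat shock genes had a median of 0.0008 in ham-3(RNAi) and -0.28 in swsn-2.2(RNAi), and 0 were jointly lower (all genes 0.544%). hsp-16.1 and hsp-16.48 sit beside copies of near-identical sequence, so their single values are uncertain.

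Histone genes behaved in the same way, with a median of 0.09 in ham-3(RNAi), -0.26 in swsn-2.2(RNAi) and -0.09 pooled over 48 genes. Poly(A) selection captures most replication-dependent histone messages poorly, and near-identical copies share fragments.

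Lists of germline genes had medians above 0 in both RNAi libraries, as had all genes (0.03 in ham-3(RNAi) and 0.08 in swsn-2.2(RNAi)). Eggshell and oocyte genes had a median of 0.14 over 28 genes, of which 26 lay above 0. Major sperm proteins, the cytoskeletal proteins of crawling sperm, had 0.13 over 35 genes, with 34 above 0. Germline stem cell and P granule genes had 0.11 over 39 genes, with 34 above 0 (all genes 62.8%). After centring each library on its median gene, these 3 medians were 0.083, 0.067 and 0.045, against -0.0081 over all genes. In swsn-2.2(RNAi) alone, the germline stem cell and P granule median of 0.08 was about that of all genes. None of these 3 lists held a jointly higher or lower gene (0.615% and 0.544% of all genes). msp-74, at 10.3, 23.6 and 14.7 FPKM, had a pooled ratio of 0.80 with 1.12 in ham-3(RNAi). Other sperm genes held 1 jointly higher gene of 57, ssp-28 (0.80). Nematode-specific peptide families, grouped here with the germline, held 2 of 45, among them nspb-4 (1.17), against 0.615% of all genes. gfp was the lowest library for 82.1%, 82.9% and 66.7% of the members of the 3 lists named first, against 43.5% of all genes. glp-1, the Notch receptor of the germline stem cells, was at 18.8, 21.95 and 22.3 FPKM (0.22), and rme-2, the yolk receptor of oocytes, at 38.5, 46.9 and 42.4 FPKM (0.21).

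Subunits of SWI/SNF itself showed a median of 0.17 over the 11 kept of 13, with 10 above 0 (all genes 62.8%). Of these subunits 0 were jointly higher (all genes 0.615%). The list includes the targeted gene ham-3, whose 0.46 was its highest value. swsn-4, the ATPase, was at 29.6 FPKM in gfp, 40.3 in ham-3(RNAi) and 41.6 in swsn-2.2(RNAi), a pooled ratio of 0.46. swsn-1, a core subunit, was at 15.3, 18.6 and 17.8 FPKM (0.23), and let-526, the ARID subunit of the BAF form, at 27.7, 32.7 and 32.1 FPKM (0.22). swsn-9, a bromodomain subunit, was at 37.2, 36.8 and 37.0 FPKM (-0.01). The members left out were swsn-2.2 and pbrm-1, the polybromo subunit, which was above 0 in gfp and listed at 0 in both RNAi libraries with a p-value of 1 in the authors' deposited table.

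**Figure D5:**
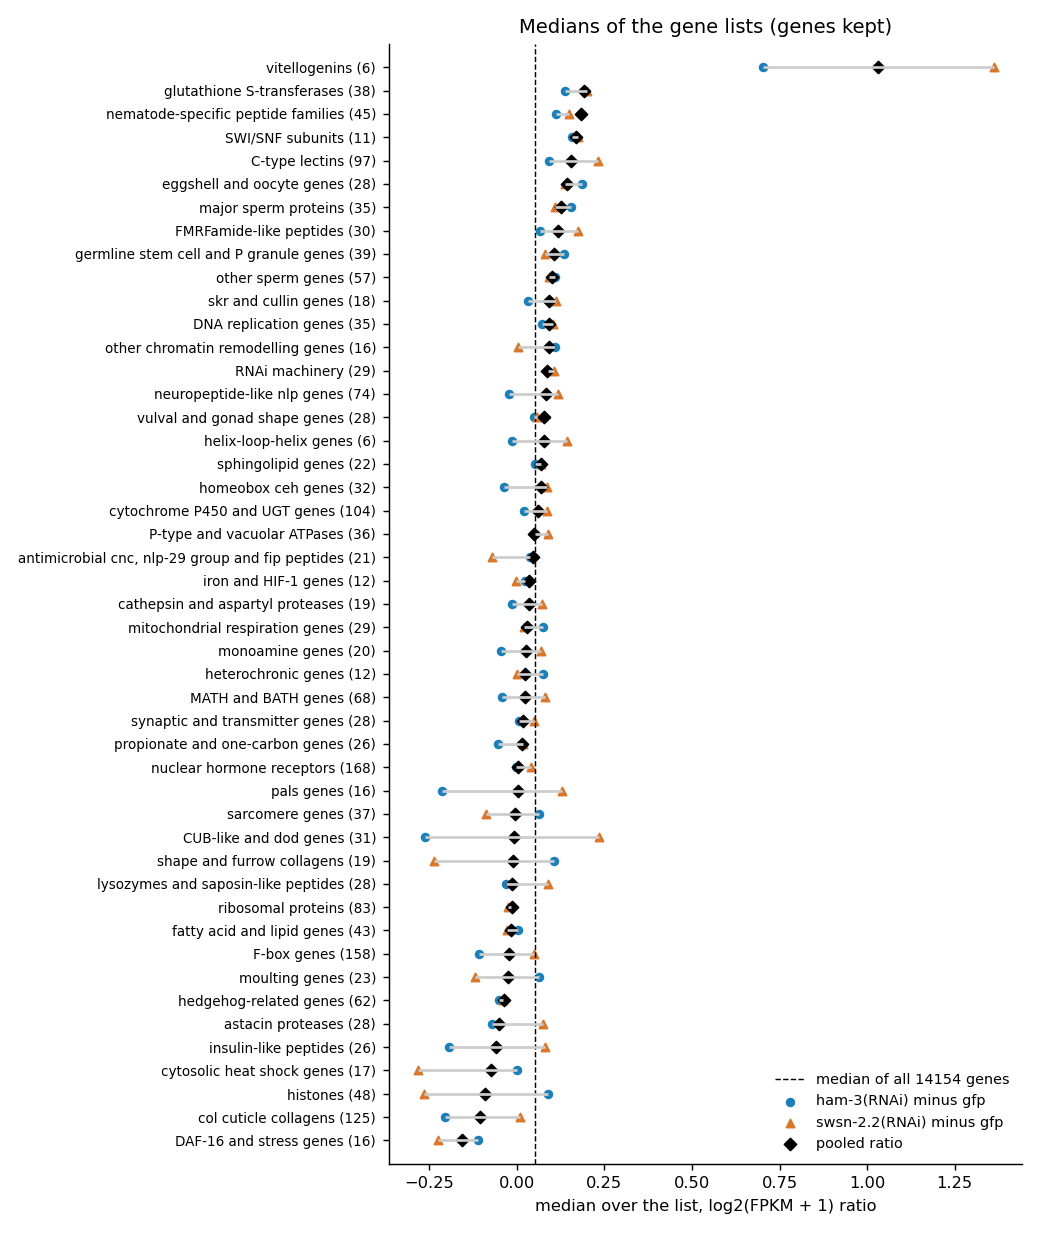
Median log2(FPKM + 1) ratio to gfp (x axis) of 47 gene lists, with the number of genes kept in brackets: ham-3(RNAi) as blue circles, swsn-2.2(RNAi) as orange triangles, the pooled ratio as black diamonds and the median of all genes as a dashed line. Vitellogenins lie at 1.03, and the other 46 lists lie between -0.16 and 0.19.

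Neural and regulatory families held few jointly higher or lower genes, as did all genes (0.615% and 0.544%). FMRFamide-like peptide genes had a median of 0.12 over 30 genes (all genes 0.05), with 24 above 0 (all genes 62.8%). The nlp neuropeptide genes had 0.08 over 74. There nlp-46, at 2.17, 6.42 and 6.37 FPKM (1.22), was the only jointly higher member (all genes 0.615%). Nuclear hormone receptors had a median of 0.0043 over 168 genes, homeobox ceh genes 0.07 over 32 and F-box genes -0.02 over 158, all with 0 jointly higher or lower members. Ribosomal protein genes had -0.01 over 83 genes.

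Several of the largest ratios belonged to short non-coding RNAs. The 5S ribosomal RNA genes rrn-4.2 and rrn-4.1 were at 252 and 94.7 FPKM in gfp, 1142 and 285 in ham-3(RNAi), and 758 and 253 in swsn-2.2(RNAi), with pooled ratios of 1.88 and 1.49. mrpr-1, the RNA of RNase MRP, was at 1.504, 8.62 and 7.62 FPKM (1.86). These RNAs carry no poly(A) tail as a rule, and the 5S genes are repeated copies. The part of carry-over through the selection in these levels was not tested. In the authors' deposited tables, both comparisons of rrn-4.1 may lack a valid test. On the lower side, the antisense RNA anr-5 was at 10.7, 2.28 and 2.28 FPKM (-1.83). Strand-specific counting is not given in the sources used here, so reads of anr-5 and of an overlapping gene cannot be told apart. The long non-coding RNA linc-5 was higher (5.80, 10.5 and 15.6 FPKM; 1.02), and linc-10 lower (9.87, 3.58 and 4.44 FPKM; -1.12).

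Of genes without a letter-number name, W05E10.16 (2.24) and Y71F9B.22 (2.12), both non-coding, had the highest pooled ratios, each from under 1 FPKM in gfp. F14F9.2 was lowest among protein-coding genes, at 5.45 FPKM in gfp, 1.19 in ham-3(RNAi) and 0.617 in swsn-2.2(RNAi), a pooled ratio of -1.78. F55H2.8 was at 7.14, 1.52 and 1.52 FPKM (-1.69). F48D6.4 was the most abundant jointly lower gene, at 799, 522 and 438 FPKM (-0.74), and was named after its values were seen.

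Counting error could be set against the ratio for part of these genes, which were chosen on that ratio. Among jointly higher genes, an interval from inferred fragments could be formed for 39, all with a single transcript, and it lay away from 0 for 36. Among jointly lower genes this held for 22 of 24. The intervals cover counting error only, and not the spread between cultures, since there was 1 library per clone. Copies made by PCR are not independent molecules, so the intervals may be too narrow even for counting error.

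The authors' own lists give a second view, with the gfp library again shared by both comparisons. The authors' deposited table of genes common to both comparisons holds 68 higher and 114 lower genes. The authors' deposited lists of single comparisons hold 580 higher genes for swsn-2.2(RNAi) and 259 for ham-3(RNAi). Their lists of lower genes hold 349 and 549 in that order. Of the 114 common lower genes, 1 is not in both single lists. In each direction, 1 gene in both single lists is absent from the common genes. These lists rest on the authors' own comparisons and not on the 1.5-fold rule. Of those kept here, the 66 higher genes in the authors' deposited table had a median pooled ratio of 0.65 (0.33 to 1.88) and the 110 lower genes -0.63 (-1.78 to -0.33). Of the 87 jointly higher genes 26 are in the authors' deposited table, and of the 77 jointly lower genes 39.

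The authors' deposited table marks 10 of the 68 higher genes and 20 of the 114 lower genes as related to DAF-16. The marked higher genes in the authors' deposited table include vit-1, vit-3, vit-5, vit-6, cpr-1, lys-4, asp-13, pgp-1 and col-179, with a median pooled ratio of 0.81. Among the marked lower genes in the authors' deposited table are ins-20, dct-7, dct-8, F15E6.4, col-105 and the cathepsin L gene cpl-1, with a median of -0.60 over all 20. Since the authors chose these lists on the same libraries, they are not independent evidence of direction. In the authors' deposited table the log2 fold change of ins-20 was -1.28 in the swsn-2.2(RNAi) comparison and -1.43 in that of ham-3(RNAi), from 1 library per group.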

How the data were processed

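Per the submitters' processing notes, the authors computed the FPKM values with Cufflinks and the comparisons with Cuffdiff. The authors' deposited tables hold FPKM per gene and transcript, a log2 fold change and a p-value, and the lists of higher and lower genes add a q-value. Program versions, an aligner and a genome build for the files were not given in the sources used here, and the number of unmapped columns was 0. Gene names came from the files and from RefSeq, which matched 13970 of 14154 genes (98.7%). Positions are from the WBcel235 annotation by sequence name, since the Start of many minus-strand genes in the files covers a single exon.

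Libraries were grouped by title, and the FPKM values were used as scaled by the authors, with a pseudocount of 1 FPKM (Python 3.11.15, pandas 2.3.3). Fold changes on this scale understate the change of low genes. No model was fitted and no p-value computed. A gene was jointly higher or lower when each RNAi library was at least 1.5-fold from gfp. The depth was inferred from the steps between FPKM values up to 0.3 of single-transcript genes, and 93.1%, 93.3% and 90.3% of 391, 476 and 497 such values came within 0.1 of a whole fragment. Exact conditional binomial (Clopper-Pearson) 95% intervals used these fragments.

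The members and all 47 gene lists were chosen with earlier results of these data known. Named genes were the 15 furthest in each direction at a mean FPKM of at least 5, the 5 furthest without a letter-number name, up to 4 of each list, threshold neighbours, genes with opposite ratios, tissue markers and both targets. Other genes are named because a description turned on them, after their values were seen. The steps were tested on simulated data. A motif search in promoters was not run, as no sequence was used here. Other settings were other pseudocounts, filters, scalings and summaries, and leaving out each RNAi library.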

Additional observations from a re-analysis of the deposited data

Results flagged for a closer look

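Among the named genes, 4 were at least 1.5-fold from gfp in both RNAi libraries but in opposite directions, so the pooled ratio hides them. The difference between libraries was not tested, since each has no replicate. C32H11.9 (RefSeq symbol cld-1), a CUB-like secreted protein gene, was at 65.8 FPKM in gfp, 5.91 in ham-3(RNAi) and 212 in swsn-2.2(RNAi), so that ham-3(RNAi) minus swsn-2.2(RNAi) was -4.95 on the log2 scale. Its pooled ratio of -0.80 turned to 0.72 with the ratio of the mean FPKM and to 1.68 without ham-3(RNAi), and the pooled ratio of dod-21 (-0.57) turned to 0.44 and 1.34. dod-21, in the same cluster, was at 8.40, 0.691 and 22.8 FPKM, a difference of -3.81. The long non-coding RNA linc-35 was at 4.23, 1.80 and 10.7 FPKM, a difference of -2.07. C30G7.4 was at 4.82, 1.95 and 9.27 FPKM, a difference of -1.80.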

How the results depend on the processing

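No paired analysis was possible because each group has 1 library. The counts of genes moved with the pseudocount, the filter and the genes listed at 0, and the cause was not tested. Shares are percent of the genes each setting kept, in the order at least 2-fold higher, 2-fold lower, jointly higher and jointly lower. They were 0.636, 0.502, 1.39 and 1.10% (90, 71 and 197 genes in the first 3) with a pseudocount of 0.1 FPKM, and 0.0707, 0.0283, 0.148 and 0.205% (10, 4, 21 and 29 genes) with 5 FPKM. With a mean FPKM of at least 5 they were 0.155, 0.146, 0.366 and 0.420% (17, 16, 40 and 46 genes). With genes listed at 0 kept they were 3.03, 1.67, 1.65 and 1.23% (449, 248, 245 and 182 genes). Centring gave 0.855% jointly lower (121 genes). Protein-coding genes alone, a setting chosen after seeing the data, gave 0.165% at least 2-fold higher (22 genes). With ham-3(RNAi) or swsn-2.2(RNAi) alone in place of the pool, the 2-fold shares ranged from 0.304 to 0.382% higher and from 0.304 to 0.495% lower, and the 1.5-fold shares from 1.65 to 2.31% higher and from 1.40 to 2.80% lower. The median pooled ratio was between 0.0284 and 0.0788 with a single library, -0.0081 when centred and 0.0051 with upper quartile scaling. Summing the transcript table gave the main counts, as did leaving out genes without an authors' test. The latter removed only genes whose listed log2 fold change was 0. It does not show that every counted gene had a test. Under the settings run, 0 of the named genes that were jointly higher or lower, or past 2-fold on the pooled ratio, changed sign. Of all 244 named genes 25 did, in 37 cases, and of the 47 list medians 27 did, in 65 cases. Jointly higher or lower genes have both RNAi libraries on the same side of gfp by selection. Leaving out either library could therefore not turn their sign. Low levels, copies that share fragments and 1 library per clone limit single values.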

Other observations

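Several jointly lower genes lay in a single stretch of chromosome IV, a pattern noticed after the values were seen and not tested. The ends and length of the stretch were set by jointly lower genes, which favours a high count in it. Between 3894058 and 4291875 (WBcel235), 7 of the 65 genes kept were jointly lower, out of 14 jointly lower genes among the 2401 of that chromosome with a position in the annotation. They were F56D6.8, dct-8, C35B1.3, K06B9.6, linc-21, dct-7 and F15E6.4, and so include both divergent pairs described above. Over all genes 0.544% were jointly lower. The same stretch held 2 jointly higher genes, R07C12.4 and R07C12.1, and the median pooled ratio of its 65 genes was 0.01. On the other chromosomes, and for jointly higher genes on IV, no stretch of that length held more than 3 jointly higher or more than 3 jointly lower genes.

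Genes of the mitochondrial genome had a median pooled ratio of -0.17 over 14 genes, against 0.06 on chromosomes I to IV, 0.04 on V and 0.02 on X. Of the 14, 10 were lower in both RNAi libraries than in gfp, among them ctb-1 for cytochrome b, at 1183 FPKM in gfp, 1029 in ham-3(RNAi) and 1091 in swsn-2.2(RNAi). None was jointly lower (0 of 14, all genes 0.544%). The 29 nuclear genes of mitochondrial respiration kept had a median of 0.03.

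The pud genes, named for upregulation in dauer larvae, include near-identical copies. pud-1.1 was at 50.7 FPKM in gfp, 12.2 in ham-3(RNAi) and 35.6 in swsn-2.2(RNAi), a pooled ratio of -1.24, whereas its copy pud-1.2 was at 11069, 12795 and 13539 FPKM (0.25). pud-2.1 was at 5.60, 7.15 and 17.5 FPKM (0.89), and its copy pud-2.2 at 11556, 12134 and 13953 FPKM (0.17). The low members hold a small part of the family's fragments, and how the authors' software divided them was not tested.

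Genes listed at 0 lie outside the pooled comparison. With a mean FPKM of at least 1, 662 genes were left out for a 0. Of genes listed at 0 in gfp, 104 had at least 10 FPKM in both RNAi libraries, and for 65 of them the p-value in the authors' deposited table was 1 in both comparisons. The reverse held for 47 genes, of which 23 had p-values of 1 in the authors' deposited table. vgln-1, at 0 in gfp, 333 FPKM in ham-3(RNAi) and 295 in swsn-2.2(RNAi), had p-values of 1 in the authors' deposited table. nhr-49 was at 80.2 FPKM in gfp and listed at 0 in both RNAi libraries, with p-values of 5.8e-95 and 3.0e-103 in the authors' deposited table, from 1 library per group.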
